A study of Mus musculus with 4 samples.

Results

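Cadherins and protocadherins are calcium-dependent adhesion proteins, and 57 of their genes, out of 19938 named genes on the array, were followed in mouse medulloblastoma and normal cerebellum. The members are the genes whose platform symbol reads Cdh, Pcdh or Pcdhb followed by a number. They comprise 5 type I and 13 type II classical cadherins, 5 other cadherins, 12 non-clustered protocadherins and 22 beta protocadherins of the gene cluster. Of the 61 probe sets that carried such a symbol alone, 4 were second probe sets of a gene, and the one with the higher mean over the arrays was used. A further 3 probe sets that name Cdh11 together with other genes were left out.

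Medulloblastoma is a tumour of the cerebellum, here driven by Hedgehog signalling in the granule neuron lineage. RNA of 4 tissues was hybridised to 1 Affymetrix array each. The control was a whole wild-type cerebellum at the age of 2 months. Math1-Cre;SmoM2 mice gave 2 tumours, one at 1 month and one at 2 months of age, and in these mice Cre driven by Math1 (Atoh1) switches on an active Smoothened. The third tumour arose by the age of 5 months in PtchLacZ/+, a genotype with lacZ in one copy of the gene for the Hedgehog receptor. All mice were of a mixed C57BL/6 and C3H background, and the tumours arose spontaneously in whole animals. The labels do not say whether a sample was 1 animal or a pool, and between tumours genotype and age cannot be told apart.

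Classical cadherins bind cells to each other through their outer repeats and to actin through catenins inside the cell. Type I and type II members differ in the pocket that joins the partners, and neurons of a kind often share a set of type II members. Non-clustered protocadherins adhere more weakly and act in cell sorting and axon growth. Clustered protocadherins are chosen by single neurons in random combinations, through promoters brought to enhancers by CTCF and cohesin, and give each neuron a surface identity. In the young cerebellum, granule neuron progenitors move from the outer layer inward as they mature, with a change in adhesion.

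Expression was read as log2 values, on which a difference of 1 is a 2-fold difference. Where a gene's levels follow one another, the tumours are in the order 1-month SmoM2, 2-month SmoM2 and PtchLacZ/+. Array medians over named genes lay between 6.73 and 6.82. Without detection calls, levels lower than the bottom quartile of an array's named genes (5.09 to 5.17) were taken as not shown above background. That held in all 4 arrays for 5 members (Cdh3, Cdh9, Cdh12, Cdh17 and Pcdhb1), against 21.0% of named genes. It held in some arrays for another 4: Cdh19 (1-month SmoM2 and PtchLacZ/+), Cdh26 and Pcdhb12 (1-month SmoM2) and Pcdhb11 (2-month SmoM2). The tissue labels were checked on defining markers. The progenitor gene Atoh1 read 4.85 in cerebellum and 11.39 to 11.98 in tumours, and the mature granule neuron gene Gabra6 read 12.24 and 4.64 to 7.97. The choroid plexus marker Ttr read 6.23 in cerebellum, then 11.27, 4.50 and 10.81 in the tumours. Of these marker levels, 4.85, 4.64 (PtchLacZ/+ tumour) and 4.50 were not shown above background. In whole tissue, fewer cells of a type and less RNA per cell cannot be told apart.

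Against the cerebellum, 4 of the 57 genes rose in the tumours (Pcdh18, Cdh20, Cdh4 and Pcdh15) and 6 fell (Cdh18, Cdh7, Pcdh9, Cdh8, Cdh15 and Cdh1), at an adjusted p under 0.05 in limma with Benjamini-Hochberg adjustment over all genes. The background was close to these shares: 6.70% of all named genes rose and 9.30% fell, against 7.02% and 10.5% of the members. In either direction 10 members (17.5%) and 16.0% of named genes passed. Most of the 10 called genes encode classical cadherins, of which 2 rose and 5 fell among 18. Of the 12 non-clustered protocadherins 2 rose and 1 fell, and no gene of the other cadherins or of the beta cluster passed. The spread came from the 3 tumours with 2 residual degrees of freedom, and the lone control was taken to vary as they do.

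Counts without a test show where the tumours parted. In the 1-month SmoM2 tumour 6 members lay at least 1 log2 unit above the cerebellum (6.81% of named genes) and 8 below it (9.95%), and in the PtchLacZ/+ tumour 7 above (7.91%) and 7 below (10.6%). In the 2-month SmoM2 tumour 6 lay above (9.43%) and 16 below (9.87%), and 10 of those 16 were beta protocadherins. All 3 tumours were above the cerebellum for 17 members and below it for 25, against 38.1% and 32.0% of named genes.

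Leaving out a tumour changed which genes passed. Pcdh18, Cdh20, Cdh18 and Cdh7 passed without any one of the 3 tumours, with the highest adjusted p = 0.0136 (limma). Without the PtchLacZ/+ tumour 2 members rose and 3 fell, against 3.15% and 4.70% of named genes. Without the 1-month SmoM2 tumour 4 rose and 4 fell, against 4.98% and 6.48%, and without the 2-month SmoM2 tumour 8 rose and 11 fell, against 13.5% and 16.7%. Fitting and adjusting over all 35557 probe sets left 2 rises and 3 falls, against 2.51% and 3.76% of named genes. Cdh1, Cdh4, Cdh15, Pcdh9 and Pcdh15 then missed the threshold (adjusted p = 0.0678, 0.106, 0.0781, 0.110 and 0.0628). With the tumour genotypes as separate groups Cdh1, Cdh15 and Pcdh9 missed it (adjusted p = 0.0878, 0.0584 and 0.0523).

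**Figure D1:**
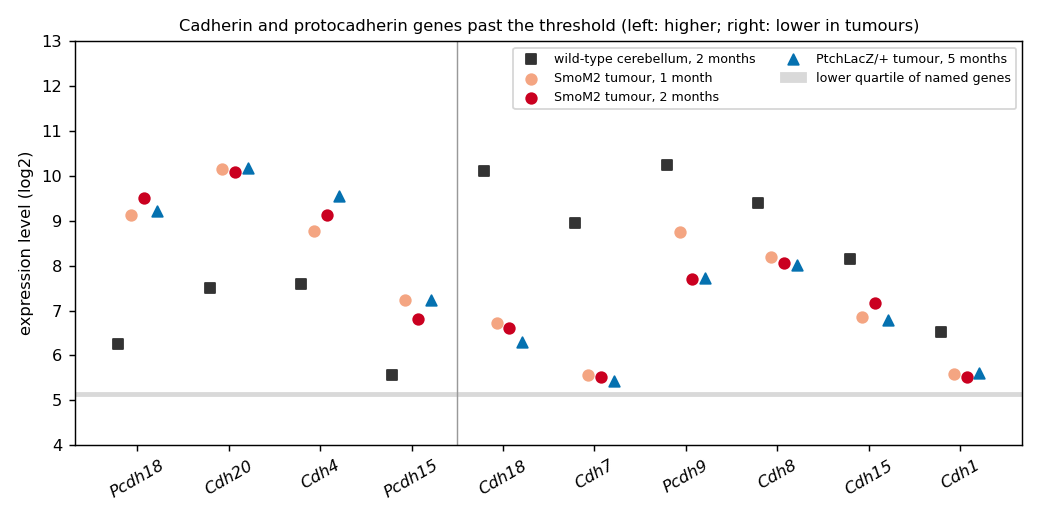
Log2 expression level (vertical axis) of the 10 members past the threshold in each of the 4 arrays, 1 point per array, with the grey band marking the lower quartiles of named genes (5.09 to 5.17). Pcdh18, Cdh20, Cdh4 and Pcdh15 lie higher in all 3 tumours than in the cerebellum, and the other 6 genes lie lower.

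The 4 genes with the most stable calls are shown with the 250 bases before their RefSeq start site (GRCm38.p6, 5′ to 3′), since each pair moved together: Cdh20 and Pcdh18 upward, Cdh7 and Cdh18 downward. Capitals mark matches on either strand to the E-box CAGGTG, which Snail and Zeb repressors bind, to the E-box CAGCTG of bHLH factors, to the Gli site GACCACCCA and to TATAAA.
Cdh20, chr1:104768270-104768519, plus strand: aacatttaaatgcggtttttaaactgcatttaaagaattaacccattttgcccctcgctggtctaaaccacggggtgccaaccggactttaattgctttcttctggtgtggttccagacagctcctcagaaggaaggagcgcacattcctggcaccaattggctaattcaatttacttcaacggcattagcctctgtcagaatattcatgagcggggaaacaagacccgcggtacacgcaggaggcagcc
Pcdh18, chr3:49757317-49757566, minus strand: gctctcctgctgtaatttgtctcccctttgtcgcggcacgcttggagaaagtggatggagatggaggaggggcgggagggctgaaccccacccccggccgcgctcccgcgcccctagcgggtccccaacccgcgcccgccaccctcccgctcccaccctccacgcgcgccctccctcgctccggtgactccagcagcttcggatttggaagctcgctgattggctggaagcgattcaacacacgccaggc
Cdh7, chr1:109982650-109982899, plus strand: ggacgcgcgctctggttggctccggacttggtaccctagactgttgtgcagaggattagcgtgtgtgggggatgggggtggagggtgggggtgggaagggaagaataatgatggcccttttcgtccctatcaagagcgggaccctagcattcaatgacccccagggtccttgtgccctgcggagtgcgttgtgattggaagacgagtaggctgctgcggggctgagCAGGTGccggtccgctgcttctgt
Cdh18, chr15:23036213-23036462, plus strand: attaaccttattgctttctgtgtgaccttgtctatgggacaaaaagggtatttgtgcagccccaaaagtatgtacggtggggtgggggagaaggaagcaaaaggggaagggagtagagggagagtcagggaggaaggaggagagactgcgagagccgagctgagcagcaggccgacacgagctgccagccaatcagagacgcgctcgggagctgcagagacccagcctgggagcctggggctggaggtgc
For Cdh7 the RefSeq table held 3 start sites, and the outermost is shown. Among these 4 windows the only match was a CAGGTG in Cdh7, 24 bases before the start, a motif that 17.2% of 32851 mouse windows of this length hold. The Gli site was found in 0.225% of all windows and in none of the 22 member windows available. The absence of these letters says nothing about factor binding. The CpG count was 23 for Pcdh18, 13 for Cdh7, 10 for Cdh20 and 8 for Cdh18, with a median of 6 over all windows.

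Among the type I classical cadherins 1 gene rose and 2 fell. Cdh4 (R-cadherin, a neural cadherin first known from the retina) read 7.60 in cerebellum, then 8.78, 9.13 and 9.56 in the tumours. All 3 tumours lay above the cerebellum, and Cdh4 rose by 1.55 ± 0.33 (limma standard error, adjusted p = 0.0382). Without the PtchLacZ/+ tumour it did not pass (adjusted p = 0.0650). Cdh15 (M-cadherin, of muscle and of cerebellar granule neurons) read 8.16 in cerebellum, then 6.85, 7.18 and 6.78 in the tumours. It fell by 1.23 ± 0.22 (adjusted p = 0.0261) and missed the threshold without the 1-month SmoM2 (adjusted p = 0.0641) or the PtchLacZ/+ tumour (adjusted p = 0.0898).

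Cdh1 (E-cadherin, the cadherin of epithelia, in brain tissue known from the meninges) read 6.52 in cerebellum, then 5.58, 5.51 and 5.61 in the tumours, a spread of 0.05 (SD, n = 3). It fell by 0.96 ± 0.17 (adjusted p = 0.0232), 1.94-fold, and missed the threshold without the 1-month SmoM2 (adjusted p = 0.0709) or the PtchLacZ/+ tumour (adjusted p = 0.0999). Cdh2 (N-cadherin, the main cadherin of neural tissue) read 9.51 in cerebellum, then 9.97, 9.87 and 10.21 in the tumours, all 3 above it. The difference of 0.51 ± 0.21 did not pass (adjusted p = 0.183). Cdh3 (P-cadherin) was at 4.77 to 4.99 in all arrays, not shown to be above background.

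Genes that bear on the Cdh1 values were read from lists. Of 7 measured Snail, Zeb and Twist genes, transcription factors that repress Cdh1 in other tissues, 1 rose and none fell. This was Zeb1 (1.72 ± 0.18, adjusted p = 0.00732), at 9.18 in the cerebellum and 10.76 to 10.98 in the tumours. Snai1 was at 7.09 in the cerebellum and 6.92 to 7.51 in the tumours. Of 11 fibroblast and meningeal markers 1 rose (Col3a1) and 1 fell (Slc6a13, by 1.65 ± 0.25, adjusted p = 0.0160). The log2 of their summed level was 11.37 in cerebellum, then 11.58, 11.38 and 11.08 in the tumours. Col1a1 was at 8.08 and 7.77 to 8.34, and Dcn at 9.17 and 8.28 to 8.82. Their part in the Cdh1 difference was not tested.

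The type II classical cadherins held the widest range of differences, from -3.57 to 2.64, with 1 rise and 3 falls among 13 genes. Cdh18 (also called cadherin 14, a brain cadherin) read 10.12 in cerebellum, then 6.73, 6.62 and 6.31 in the tumours. It fell by 3.57 ± 0.23 (adjusted p = 0.00348), 11.8-fold, and its second probe set differed by -3.73. Cdh7 read 8.96 in cerebellum, then 5.56, 5.52 and 5.43 in the tumours. It fell by 3.46 ± 0.17 (adjusted p = 0.00295), 11-fold. The tumours lay close together for both genes and far below the cerebellum.

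Cdh20, which lies on chromosome 1 as Cdh7 does, went the other way. It read 7.50 in cerebellum, then 10.16, 10.09 and 10.17 in the tumours, and rose by 2.64 ± 0.17 (adjusted p = 0.00343), 6.24-fold. The 3 tumours spanned less than 0.1 on the log2 scale. Cdh8, a cadherin of brain synapses, read 9.40 in cerebellum, then 8.20, 8.06 and 8.01 in the tumours. It fell by 1.32 ± 0.18 (adjusted p = 0.0122) but missed the threshold without the PtchLacZ/+ tumour (adjusted p = 0.0576).

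Of the other type II genes, Cdh22 was at 8.97 in the cerebellum and 7.29, 8.10 and 7.07 in the tumours, Cdh10 at 7.87 and 7.18, 6.76 and 6.79, and Cdh24 at 6.59 and 7.48, 7.38 and 7.88. Their differences of -1.48 ± 0.43, -0.96 ± 0.23 and 0.99 ± 0.25 did not pass (adjusted p = 0.0849, 0.0566 and 0.0627), although the tumours agreed in direction for each gene. Without the 2-month SmoM2 tumour each passed (adjusted p = 0.00179, 0.0278 and 0.0143). Cdh24's second probe set differed by 0.30. Cdh12 (-0.77 ± 0.21, adjusted p = 0.0706) stayed at levels not shown to be above background, at most 4.95. It passed without the 2-month SmoM2 tumour (adjusted p = 0.0113) and with a trended prior variance (adjusted p = 0.0306). Cdh11 (OB-cadherin, of mesenchymal cells) differed by -0.54 ± 0.34, Cdh6 by 0.02 ± 0.17 and Cdh9 by 0.02 ± 0.17. Cdh19 differed by -0.44 ± 0.41, and by -0.73 without the 2-month SmoM2 tumour, where it passed (adjusted p = 0.0194), with both other tumours at levels not shown above background.

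Markers of the cell types that these classical cadherins could mark moved as follows. Of 11 mature granule neuron markers 8 fell, with a median difference of -3.79, and the log2 of their summed level was 15.32 in the cerebellum and 11.82, 11.59 and 10.98 in the tumours. Of 8 Purkinje cell markers 6 fell (median -4.22), with summed levels of 14.40 and 10.91, 10.61 and 8.88. Of 8 inhibitory interneuron markers 6 fell, with summed levels of 13.48 and 10.47, 10.43 and 9.77. Of 10 granule neuron progenitor markers 5 rose, with summed levels of 13.57 and 14.64, 14.52 and 14.94. Of 10 astrocyte and Bergmann glia markers 6 fell, of 9 oligodendrocyte markers 8 fell, of 10 microglia and macrophage markers 4 rose, and of 8 choroid plexus and ependymal markers none passed. Among defining markers Gabra6 and Calb1 did not pass. Pcp2 differed by -3.09 ± 0.41, Aqp4 by -1.20 ± 0.21 and Mog by -1.89 ± 0.47 (not past the threshold). The called markers with the largest differences were Vsnl1 (-5.48) and Calb2 (-4.42) of granule neurons, Ppp1r17 and Arhgef33 of Purkinje cells, Pvalb (-4.18) and Gad2 of interneurons, and Atoh1 and Nhlh1 of progenitors. In glia these were Gja1 (-3.05) and Aldoc (-2.84), Ermn and Mag (-3.28), and Lyz2 (5.21) and Cd68 (3.17). Genes given here without a value were not shown above background in the cerebellum (Atoh1 and Nhlh1) or in the PtchLacZ/+ tumour (Gabra6, Calb1, Ppp1r17, Arhgef33, Gad2 and Ermn). Their part in the falls of Cdh18, Cdh7, Cdh8 and Cdh15 was not tested.

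Cdh5 (VE-cadherin, the cadherin of endothelial junctions) stood apart in 1 tumour. It read 6.60 in cerebellum, then 6.48, 7.56 and 6.58 in the tumours, with a difference from the cerebellum of 0.27 ± 0.47 (adjusted p = 0.786). Pcdh12, a protocadherin also found in endothelium, was at 5.54, 5.66, 6.36 and 5.97 in the same order of arrays. Of 11 endothelial markers, 10 were higher in the 2-month than in the 1-month SmoM2 tumour and 6 by at least 1 log2 unit, with a median difference of 1.10. Against the cerebellum 1 of them passed, Tek (-1.07 ± 0.18, adjusted p = 0.0203). Pecam1 read 6.88 in cerebellum, then 6.30, 7.63 and 6.40 in the tumours. In the same order Cldn5 was at 7.80, 7.65, 8.81 and 7.72, and Tie1 at 6.38, 6.32, 7.42 and 6.31. The log2 summed endothelial level was 10.63, 10.14, 11.07 and 10.19, highest in the 2-month SmoM2 tumour as for Cdh5 and Pcdh12. Their part in the Cdh5 value was not tested.

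Among the remaining cadherins, Cdh13 (T-cadherin, anchored to the membrane by lipid and lacking a cytoplasmic tail) read 6.30 in cerebellum, then 6.55, 7.55 and 6.98 in the tumours. All tumours lay above the cerebellum, and the difference of 0.73 ± 0.40 did not pass (adjusted p = 0.321). Cdh16, known from kidney, read 5.46 in cerebellum, then 5.41, 5.45 and 5.50 in the tumours (-0.01 ± 0.17), and Cdh17, known from gut, differed by 0.05 ± 0.22. Cdh23, a part of the tip links of hair cells, differed by -0.28 ± 0.18, and Cdh26 by 0.03 ± 0.19.

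**Figure D2:**
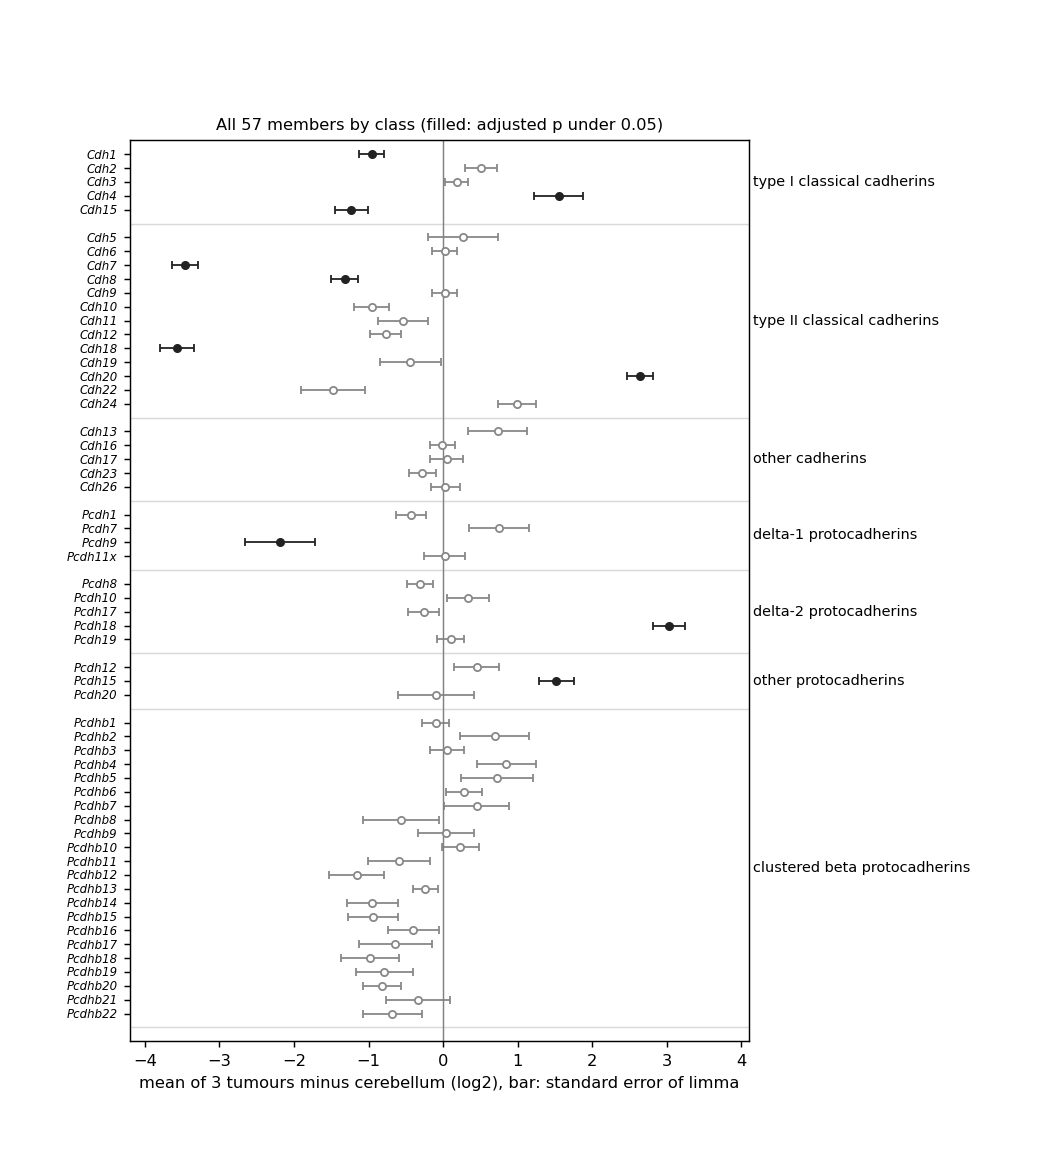
Mean of the 3 tumours minus cerebellum on the log2 scale (horizontal axis) for all 57 members grouped by class, with limma's standard error as bars and filled points for adjusted p under 0.05. Values run from -3.57 (Cdh18) to 3.03 (Pcdh18), and the 22 beta protocadherins from -1.16 to 0.85.

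The non-clustered protocadherins included the largest rise of the family. Pcdh18, of the delta-2 group, read 6.26 in cerebellum, then 9.14, 9.50 and 9.23 in the tumours. It rose by 3.03 ± 0.21 (adjusted p = 0.00400), 8.19-fold. The other delta-2 genes did not pass: Pcdh10 (OL-protocadherin, of growing axons) differed by 0.33 ± 0.28, Pcdh19, known for its epilepsy mutations, by 0.10 ± 0.18, Pcdh17, at 7.64 in cerebellum and 7.59, 7.22 and 7.35 in the tumours, by -0.26 ± 0.21, and Pcdh8, a protocadherin of synapses, by -0.31 ± 0.18. The median of the 5 delta-2 genes was 0.10.

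Of the delta-1 group, whose tails bind protein phosphatase 1, Pcdh9 read 10.25 in cerebellum, then 8.75, 7.70 and 7.72 in the tumours. It fell by 2.19 ± 0.47 (adjusted p = 0.0391), 4.57-fold, and its second probe set differed by -2.18. All tumours lay below the cerebellum, the 1-month tumour nearest to it, and the call was lost without the PtchLacZ/+ tumour (adjusted p = 0.0854). Pcdh7 read 6.80 in cerebellum, then 8.09, 7.09 and 7.49 in the tumours, all above it, with a difference of 0.75 ± 0.40 that did not pass (adjusted p = 0.307) except without the 2-month SmoM2 tumour (adjusted p = 0.0441). Pcdh1 differed by -0.43 ± 0.20 and Pcdh11x by 0.02 ± 0.27.

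Pcdh15, the partner of Cdh23 in hair cell tip links and a gene of oligodendrocyte precursors in brain, read 5.57 in cerebellum, then 7.23, 6.81 and 7.23 in the tumours. It rose by 1.52 ± 0.24 (adjusted p = 0.0178), but its second probe set differed by 0.67, and the call was lost without the PtchLacZ/+ tumour (adjusted p = 0.0611). Of 7 oligodendrocyte precursor markers 4 rose and none fell, led by C1ql1 (3.82) and Pdgfra (3.38). The log2 of their summed level was 10.20 in the cerebellum and 12.74, 12.57 and 12.60 in the tumours. Their part in the Pcdh15 value was not tested. Pcdh20 read 7.03 in cerebellum, then 7.01, 7.56 and 6.24 in the tumours, with the PtchLacZ/+ tumour lowest, and differed by -0.09 ± 0.51.

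No gene of the beta cluster passed against the cerebellum, while their differences ordered along the chromosome. The 22 genes, Pcdhb1 to Pcdhb22, lie in numerical order on chromosome 18. From Pcdhb11 to Pcdhb22, all 12 genes lay below the cerebellum in both SmoM2 tumours and 10 of 12 in the PtchLacZ/+ tumour, with medians of -0.69, -1.23 and -0.29 at 1 month, at 2 months and in the PtchLacZ/+ tumour. From Pcdhb1 to Pcdhb10, 3, 5 and 2 of 10 genes lay below it, with medians of 0.10, 0.00 and 0.58. The split after Pcdhb10 was made with the values known and has no test. Spearman's rho between place in the order and difference was -0.73, -0.67 and -0.63 over the 22 genes, a description only, since the genes share arrays, the cerebellum and much of their sequence.

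**Figure D3:**
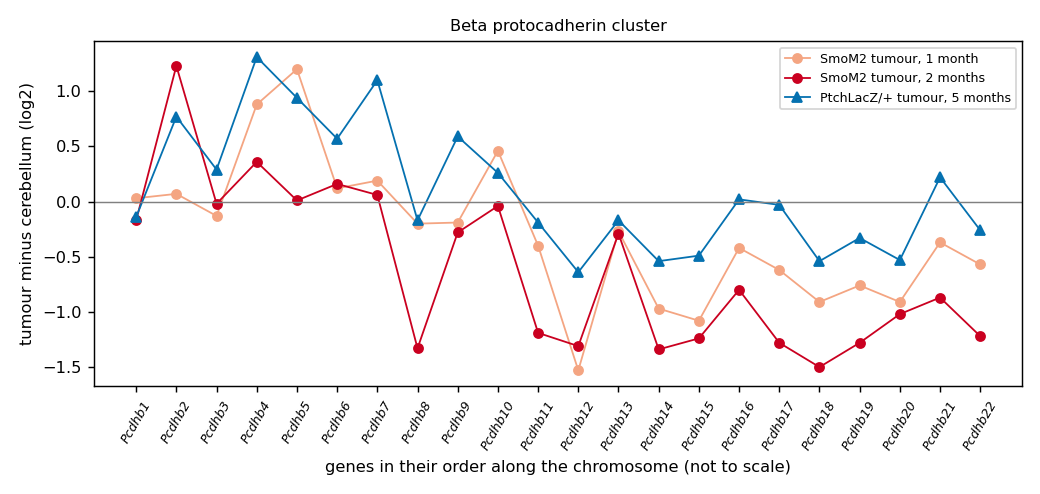
Difference of each tumour from the cerebellum on the log2 scale (vertical axis) for the 22 beta protocadherin genes in chromosome order (horizontal axis, not to scale), with 1 line per tumour. The PtchLacZ/+ tumour is the highest of the 3 tumours in 18 of the 22 genes, and the genes from Pcdhb11 on lie below 0 in both SmoM2 tumours.

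Pcdhb12 read 6.62 in cerebellum, then 5.09, 5.32 and 5.98 in the tumours, a difference of -1.16 ± 0.37 (adjusted p = 0.111). Its level of 5.09 at 1 month is not shown above background. Pcdhb18 was at 7.12, 6.21, 5.62 and 6.57 in the same order (-0.98 ± 0.39, adjusted p = 0.173). In both genes the 3 tumours lay below the cerebellum. Pcdhb16 was at 8.07, 7.64, 7.27 and 8.08, with the PtchLacZ/+ tumour level with the cerebellum. Pcdhb15 was at 7.36, 6.27, 6.12 and 6.87 (-0.94 ± 0.33, adjusted p = 0.137).

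At the other end of the cluster Pcdhb4 read 5.97 in cerebellum, then 6.85, 6.33 and 7.28 in the tumours (0.85 ± 0.39, adjusted p = 0.228). Pcdhb5 read 5.36 in cerebellum, then 6.56, 5.37 and 6.30 in the tumours (0.72 ± 0.48, adjusted p = 0.422). Both passed without the 2-month SmoM2 tumour (adjusted p = 0.0166 and 0.00899), as did Pcdhb18 (adjusted p = 0.0465), and Pcdhb12 passed without the PtchLacZ/+ tumour (adjusted p = 0.0486). At an unadjusted p under 0.05, 4 of 22 beta genes (Pcdhb12, Pcdhb14, Pcdhb15 and Pcdhb20) and 29.7% of all named genes stood out in limma. The genes are close copies of each other, so a probe set may also read RNA of its neighbours, and their levels are not independent.

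Genes around the cluster were read for comparison. Protocadherin genes were left out of these neighbours. Of the 20 nearest other named genes, 10 on each side of the cluster, none rose and 2 fell. Their medians against the cerebellum were -0.09, 0.02 and -0.12 in the tumours. The 449 other named genes of the chromosome had medians of -0.03, 0.03 and -0.01. One probe set that carries 14 alpha protocadherin symbols, and thus names no single gene, read 6.51 in cerebellum, then 6.06, 5.52 and 6.39 in the tumours. Of 12 regulators of clustered protocadherin promoters, 2 rose and none fell. These were the repressor gene Smchd1 (1.29 ± 0.17, adjusted p = 0.0115) and the cohesin gene Rad21 (0.94 ± 0.17, adjusted p = 0.0237), and Ctcf differed by 0.54 ± 0.19 (adjusted p = 0.141).

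The tumours were then compared with each other, where genotype and age cannot be told apart. In PtchLacZ/+ against SmoM2 no member and no gene of all named genes (0.00%) passed in limma, with 1 residual degree of freedom, which does not show that the tumours are alike. At an unadjusted p under 0.05 there were 4 members (Pcdhb7, Pcdhb9, Pcdhb12 and Pcdh20), against 1.40% of all named genes. The beta cluster held the differences in one direction. The PtchLacZ/+ tumour lay above both SmoM2 tumours in 18 of 22 beta genes and below both in none, while 23.8% of all named genes lay above both and 31.1% below both. Of the 35 other members 9 lay above both and 11 below both. The beta genes share 1 PtchLacZ/+ array and much of their sequence, so their count is a description only.

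The median difference of the PtchLacZ/+ tumour from the mean of the SmoM2 tumours was 0.62 over the beta genes and -0.03 over all named genes. It was 0.43 against the 1-month and 0.84 against the 2-month SmoM2 tumour alone. Pcdhb7 was at 7.98 in the PtchLacZ/+ tumour, 7.07 and 6.95 in the SmoM2 tumours (0.97 ± 0.26) and 6.88 in cerebellum, and Pcdhb9 was at 6.96 against 6.19 and 6.10 (0.82 ± 0.25). Pcdh20, at 6.24 against 7.01 and 7.56, went the other way (-1.04 ± 0.33). No member lay at least 1 log2 unit beyond both SmoM2 tumours, as 0.0853% of all genes did upward and 0.301% downward. The neighbouring 20 genes had a median of -0.09, and 1 of them lay above both.

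Between the SmoM2 tumours at 1 and 2 months there was 1 array each and no test. A difference of at least 1 log2 unit was present in 3 members higher at 1 month (Pcdhb5, Pcdhb8 and Pcdh9), against 2.05% of named genes, and in 3 lower at 1 month (Pcdhb2, Cdh5 and Cdh13), against 1.66%. In either direction these are 6 of 57 members, against 3.71% of named genes. After quantile normalization 1 was higher at 1 month (Pcdh9, with Pcdhb5 and Pcdhb8 lost) and 4 were lower (Pcdhb2, Cdh5, Cdh13 and Cdh19). Pcdhb8 was at 6.53 and 5.40 at 1 and 2 months, and at 6.74 in the cerebellum and 6.56 in the PtchLacZ/+ tumour. Pcdhb2 was at 6.26 and 7.42, against 6.19 in the cerebellum and 6.96 in the PtchLacZ/+ tumour. Cdh13 was just inside the limit, higher at 2 months by 1.0012, and Pcdh7 just outside it, higher at 1 month by 0.9997. In 18 of the 22 beta genes the 2-month tumour was the lower, against 40.1% of all named genes. It was the lowest of the 4 arrays in 15 of them, against 20.2% of all named genes. The 2-month array had the lowest median over all probe sets (6.12) but the highest over named genes (6.82), and the part of either was not tested.

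**Figure D4:**
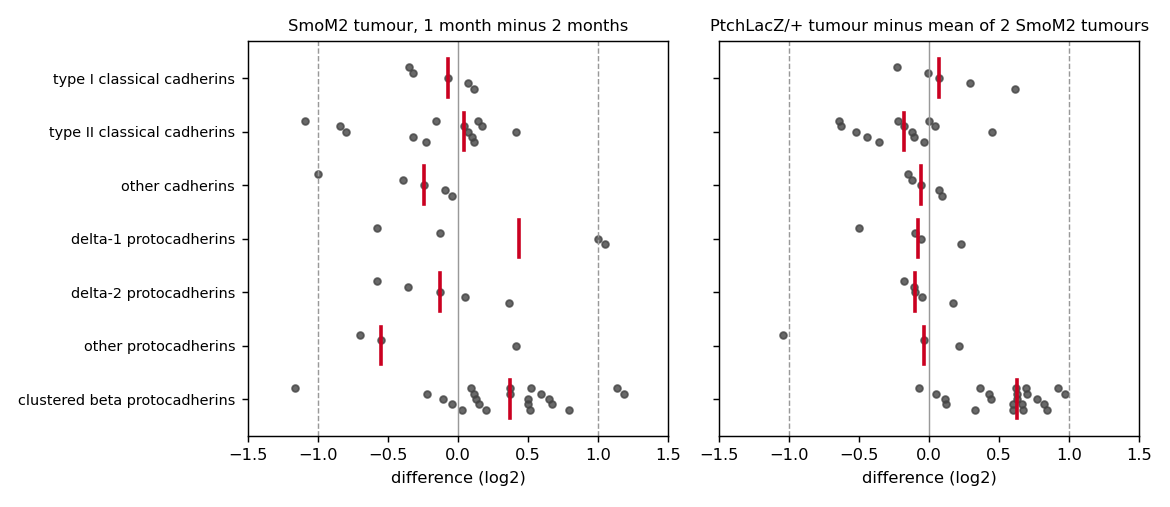
Differences on the log2 scale (horizontal axes) between the SmoM2 tumours at 1 and 2 months (left) and between the PtchLacZ/+ tumour and the mean of the SmoM2 tumours (right), with 1 point per member by class and red lines for class medians. In the right panel the beta protocadherins have a median of 0.62, and 21 of 22 lie above 0.

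Partners of the cadherins were read from lists. Of 16 catenins and other partners, 1 rose and 3 fell, with a median of 0.24 against 0.04 over all named genes. Ctnnd1 (p120 catenin, which keeps cadherins at the membrane) rose by 1.15 ± 0.19 (adjusted p = 0.0198). Jup (plakoglobin), Ctnna3 and Pkp4, all of junction complexes, fell, with differences of -1.96 ± 0.21, -1.87 ± 0.39 and -1.26 ± 0.18 (adjusted p = 0.00750, 0.0355 and 0.0137), and Ctnna3 was not shown above background in the 1-month SmoM2 and PtchLacZ/+ tumours (4.61 in both). Ctnnb1 (beta-catenin) differed by 0.43 ± 0.18 (adjusted p = 0.202) and Ctnna2, the neuronal alpha-catenin, by 0.39 ± 0.30 (adjusted p = 0.484).

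Of 6 measured proteases that cut cadherins, 1 rose, the gamma-secretase subunit gene Ncstn (0.93 ± 0.20, adjusted p = 0.0418). Of 19 larger or more distant cadherin-repeat genes, 1 rose and 4 fell, with a median of -0.12. Dchs1 rose by 1.88 ± 0.31 (adjusted p = 0.0202). The synaptic calsyntenin genes Clstn3 and Clstn2 fell, with differences of -3.68 ± 0.27 and -3.08 ± 0.21 (adjusted p = 0.00423 and 0.00396), and Fat2, a large cadherin of granule neurons that is also in the granule neuron list above, fell by 3.62 ± 0.55 (adjusted p = 0.0160). Of 9 measured partners of protocadherin tails 1 fell, the WAVE complex gene Cyfip2 (-2.13 ± 0.45, adjusted p = 0.0369), with a median of -0.19.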

How the data were processed

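Values of 4 arrays (Affymetrix Mouse Gene ST) were analysed. The log2 values were deposited by the authors as a table of 35557 probe sets, and the submitters' processing notes name Affymetrix Expression Console. The log2 scale was inferred from their range (2.71 to 14.9), and their normalization is not stated by the sources used here. Of the probe sets 21789 had 1 symbol, 1621 several and 12147 none. With 1 probe set per gene, 19938 genes were fitted with limma 3.58.1 in R 4.3.3 (lmFit and eBayes, Benjamini-Hochberg). Tumours were compared with cerebellum, and PtchLacZ/+ with SmoM2 tumours. Lone samples were assumed to vary like the group they were compared with. Against the cerebellum, p-values rest on the spread between tumours that differ in genotype and age. Between the tumour genotypes they rest on the SmoM2 tumours, which differ in age. Part of either spread may be technical. The number of arrays limits the precision.

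The members, classes and gene lists were chosen with earlier results of these data known. All members are accounted for. Levels in every array are given for those past a threshold, at least 1 apart between SmoM2 tumours, or among the 2 highest of a class, and some others were chosen after their values were seen. Of each list, the called genes with the 2 largest differences per direction and preset defining markers are named. The fits were tested on simulated data. Alternatives covered normalization, centring, probe set choice, level filter, prior variance, grouping, features tested and each tumour left out. Promoter sequences came from RefSeq (GRCm38.p6). Members on chromosome 18 were left out of the promoter search, and 22 of 57 members had a sequence that was used.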

Additional observations from a re-analysis of the deposited data

Results flagged for a closer look

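Both SmoM2 tumours lay on one side of the cerebellum and the PtchLacZ/+ tumour on the other in 5 members, a difference that was not tested as such. These were 8.77% of the members, against 5.87% of named genes. In each the PtchLacZ/+ tumour was the higher, the direction of 2.36% of named genes. The PtchLacZ/+ minus SmoM2 difference was 0.36 for Pcdhb3, 0.82 for Pcdhb9, 0.63 for Pcdhb16 and 0.84 for Pcdhb21, all of the beta cluster, and 0.07 for Cdh16. The Cdh16 levels spanned 5.41 to 5.50 over all 4 arrays, and Pcdhb16 in the PtchLacZ/+ tumour exceeded the cerebellum by less than 0.1.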

How the results depend on the processing

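The counts of members called against the cerebellum (4 higher, 6 lower) changed with some choices. Fitted and adjusted over all probe sets they were 2 and 3 (501 and 750 of all named genes). With the tumour genotypes as separate groups 4 were higher and 3 lower (777 and 1174 of all genes). With 1 tumour left out the counts ran from 2 to 8 higher and from 3 to 11 lower (628 to 2689 and 937 to 3321 of all genes). Pcdh18, Cdh20 and Cdh18 passed under each alternative, and Cdh7 under each but the filter, which left it out. Between the SmoM2 tumours, 1 member was at least 1 higher at 1 month and 4 were lower after quantile normalization, and 1 in each direction among genes above the median level. With that level filter, the class medians were 0.51 (type I), -0.96 (type II), 0.73 (other cadherins), -0.72 (delta-1), 1.39 (delta-2), -0.09 (other protocadherins) and 0.03 (beta cluster), over 1 to 7 genes each. Without the filter they were 0.18, -0.54, 0.03, -0.20, 0.10, 0.45 and -0.37 in the same order. The sign turned for the other protocadherins and the beta cluster. The filtered medians arise from fewer members. The differences from the cerebellum turned sign after quantile normalization in Cdh6 (-0.05), Cdh26 (-0.02), Pcdh11x (-0.06), Pcdhb3 (-0.01) and Pcdhb9 (-0.01), and with separate groups in Cdh16 (0.00). They turned sign with a tumour left out in Cdh5 (-0.07 to 0.47), Cdh6 (-0.03 to 0.06), Cdh9 (-0.02 to 0.06), Cdh16 (-0.03 to 0.02), Cdh17 (-0.07 to 0.13), Cdh26 (-0.02 to 0.10), Pcdh11x (-0.14 to 0.15), Pcdh20 (-0.40 to 0.26), Pcdhb3 (-0.07 to 0.13) and Pcdhb9 (-0.23 to 0.20), and none of these members had passed. The cause was not tested. No paired analysis was possible, since there was 1 cerebellum array and the labels link no tumour to it. Without an SmoM2 tumour, PtchLacZ/+ against SmoM2 has no residual degrees of freedom and no test. Levels under the lower quartile limit what can be read for 9 members, 5 of them in all 4 arrays.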
